A study of Mus musculus with 24 samples.

Results

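In murine erythroleukemia (MEL) cells, 6317 protein-protected sites (PPSs) were called in both replicates after 4 days of DMSO and overlapped no PPS of any length at day 0 or day 2 on their strand. They were 6317 of the 152513 PPSs in the day 4 list and of the 460777 PPSs in the 3 lists together. The sites were selected on the readout itself. Of the 152513 PPSs at day 4, 122038 lay outside the ribosome-sized range of 20 to 40 nt, 43631 of these held calls of replicate 1 and replicate 2 with either nuclease, and 6317 of the 43631 (14.5%) shared no nucleotide with the lists of the other days. The remaining 37314 replicated day 4 PPSs, which overlapped a site of day 0, day 2 or both, served as the comparison and are called shared sites below. Of these, 22878 overlapped PPSs of both other days, 5539 of day 0 and not day 2, and 8897 of day 2 and not day 0. The same rule applied to the other lists gave 5123 replicated sites seen at day 0 only and 5226 at day 2 only.

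Few sites lay within 5 nt of the length and overlap limits of the rule. There were 371 members of 41 to 45 nt, with a median score of 12.22, and 216 otherwise eligible sites of 36 to 40 nt were left out, also with a median score of 12.22. A PPS of day 0 or day 2 lay 1 to 5 nt away from 181 members (median score 14.88), and 163 sites that shared 1 to 5 nt with such a PPS (median score 13.87) fell on the other side. The count depended on the requirement for both replicates. Without it, 18948 sites remained when replicate 1 of day 4 was left out and 23829 when replicate 2 was left out. The count also depended on what was held against a site. It was 9336 when PPSs of 20 to 40 nt were left out of the day 0 and day 2 lists. It was 4943 when no PPS of those days was allowed within 50 nt.

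Protein interaction profile sequencing (PIP-seq) was performed on MEL cells, an immortalised mouse line that resembles an early erythroid precursor and matures when DMSO is added. The 24 libraries were 8 at each of day 0 (undifferentiated), day 2 and day 4 of growth with 2% DMSO, in 12 groups of 2 replicates. All cells were crosslinked with formaldehyde. Libraries were digested with a nuclease specific to single-stranded RNA (ssRNase, RNaseONE) or to double-stranded RNA (dsRNase, RNaseV1), either while proteins still covered the RNA (footprinting libraries) or after proteins had been removed (structure-only libraries). MEL cells are a transformed line, and induced cultures hold cells at more than a single stage, so that a PPS describes the culture and not a cell type.

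A protein bound to RNA shields its site from nuclease, and PIP-seq reads this shielding without selecting any protein, so that the proteins themselves are not named. In maturing erythroid cells the nucleus condenses and transcription declines, and RNA-binding proteins take over much of the control of the messages that remain. Those proteins act in introns on splicing and in 3′ untranslated regions (UTRs) on stability and translation, and the coding sequence (CDS) is the path of the ribosome. The lists hold no RNA level. A site that was absent at an earlier day and an RNA that was too scarce there to give a call cannot be told apart, and neither can fewer cells of a stage and less RNA per cell.

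The calls behind the lists were not even. The 12 call sets (day, nuclease and replicate) held 20927 to 91091 calls. The lists hold no read totals, and the study gives only a range of raw reads over its libraries, so that depth could not be set beside the calls of a call set. The dsRNase call sets supplied 38.4% of calls at day 0, 27.2% at day 2 and 52.5% at day 4. Of calls in replicate 2 of ssRNase, 66.8% were on the plus strand at day 0 and 43.4% at day 4, whereas the other 10 call sets had 49.8% to 51.9%. Among 12 erythroid marker genes, 9 had PPSs before induction, 10 at day 2 and 11 at day 4. Of 14 markers of other blood lineages, 12 held no PPS at day 4, among them Mpo, Elane and Cd3e, and the others were Itga2b with 64 PPSs and Pf4 with 2.

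To show what the sites are made of, the highest-scoring members that lay wholly inside a CDS, an intron or a noncoding exon are given first, as RNA-strand DNA letters of the GRCm38 (mm10) assembly. Capitals mark the short words counted further below, which are GAAGAA of splicing enhancers, TCTCT of pyrimidine tracts, GTGTG of GU-rich elements, ATTTA of AU-rich elements, the word TGTANATA, AATAAA of polyadenylation signals and the adenine run AAAAAA. Overlapping matches were all marked. In coding sequence these were a site in Cenpb (chr2:131178982-131179091, minus strand, score 49.92), which encodes a protein that binds centromeric DNA and whose gene lies inside the annotated span of Spef1, a site in Apol11a, an apolipoprotein L gene (chr15:77517017-77517167, plus strand, score 42.89), and a site in the zinc finger gene Zfp644 (chr5:106637274-106637352, minus strand, score 42.62).
Cenpb CDS: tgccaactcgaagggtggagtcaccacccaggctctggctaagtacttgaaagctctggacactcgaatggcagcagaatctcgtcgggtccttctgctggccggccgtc
Apol11a CDS: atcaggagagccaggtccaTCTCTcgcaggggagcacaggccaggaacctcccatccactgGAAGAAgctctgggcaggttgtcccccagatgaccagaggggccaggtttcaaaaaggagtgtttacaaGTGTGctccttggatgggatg
Zfp644 CDS: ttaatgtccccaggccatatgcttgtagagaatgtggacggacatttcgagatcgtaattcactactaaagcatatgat

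In introns, the highest scores belonged to Csf2rb2, which encodes a mouse interleukin-3 receptor subunit (chr15:78302257-78302531, minus strand, score 62.25), to Sptb, which encodes the β-spectrin of the red cell skeleton (chr12:76618746-76618880, minus strand, score 49.64), and to Dpf3, which encodes a chromatin-remodelling subunit (chr12:83449441-83449639, minus strand, score 48.54). The Csf2rb2 site had calls in all 4 day 4 call sets and lay 5 nt from a PPS of an earlier day, the Dpf3 site lay 8 nt from such a PPS, and the Sptb site 75 nt.
Csf2rb2 intron: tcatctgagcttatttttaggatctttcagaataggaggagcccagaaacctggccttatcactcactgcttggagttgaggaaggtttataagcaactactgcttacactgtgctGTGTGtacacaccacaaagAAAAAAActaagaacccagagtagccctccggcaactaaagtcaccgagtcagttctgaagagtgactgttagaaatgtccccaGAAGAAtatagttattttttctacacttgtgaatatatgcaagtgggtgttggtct
Sptb intron: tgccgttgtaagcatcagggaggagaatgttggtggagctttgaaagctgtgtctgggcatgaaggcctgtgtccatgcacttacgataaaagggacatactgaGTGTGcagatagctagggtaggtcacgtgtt
Dpf3 intron: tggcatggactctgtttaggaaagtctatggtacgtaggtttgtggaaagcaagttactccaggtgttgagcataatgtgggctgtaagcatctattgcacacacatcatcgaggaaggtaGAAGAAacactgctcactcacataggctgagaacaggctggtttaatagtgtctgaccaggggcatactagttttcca

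Of noncoding exons, a transcript annotated within the span of Ell2 held the highest score (chr13:75727640-75727817, plus strand, score 43.48), and Firre, a long noncoding RNA of the X chromosome, held a site with a score of 33.25 that both ssRNase replicates and neither dsRNase replicate had called (chrX:50569288-50569418, minus strand).
Ell2 locus noncoding exon: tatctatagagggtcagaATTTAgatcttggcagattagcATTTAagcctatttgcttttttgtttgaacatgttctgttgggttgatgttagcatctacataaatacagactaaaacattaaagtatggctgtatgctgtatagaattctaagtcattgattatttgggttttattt
Firre noncoding exon: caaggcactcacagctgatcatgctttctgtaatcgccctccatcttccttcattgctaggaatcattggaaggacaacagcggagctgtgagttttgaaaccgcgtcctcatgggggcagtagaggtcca

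Coding sequence was overlapped by fewer day 4 only sites than shared sites. It was touched by 1716 of 6317 members, or 27.2% (Wilson 95% interval 26.1 to 28.3), and by 38.1% of the 37314 shared sites (37.7 to 38.6). The difference was -11.0 percentage points (Newcombe 95% interval -12.2 to -9.77), and it was -11.3 points within classes of equal length. 5′ UTRs were touched by 1.98% of members and 4.50% of shared sites, a difference of -2.52 points (-2.90 to -2.09). Introns were touched by 57.0% and 56.8%, and the interval of the difference included 0 (0.201 points, -1.12 to 1.52). 3′ UTRs were touched by 22.5% and 21.6%, again with an interval that included 0 (0.913 points, -0.184 to 2.04). Antisense sites, which lay on the strand opposite to a gene, made up 3.20% of members and 2.02% of shared sites (difference 1.18 points, 0.750 to 1.67), and intergenic sites 5.60% and 4.04% (1.56 points, 0.982 to 2.19). A PPS that touched several features was counted under each of them. These intervals cover counting error only, since PPSs are not replicates of a condition and many lie on the same RNA.

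**Figure D1:**
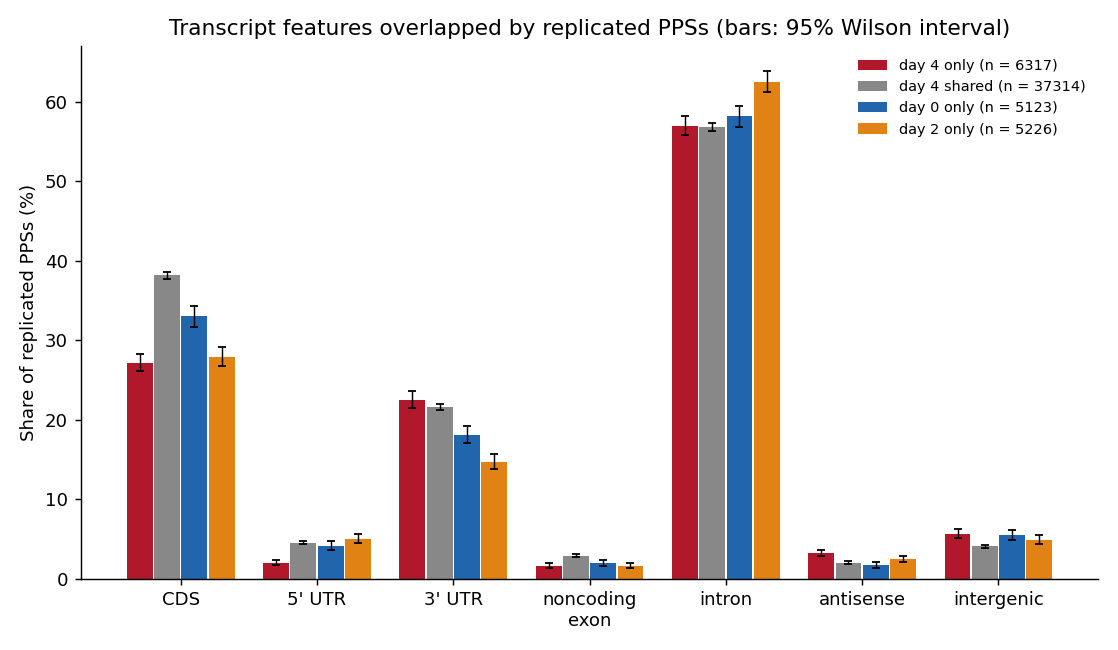
Share of replicated PPSs (y axis, percent) that overlapped each feature (x axis) for the sites seen at day 4 only, the shared day 4 sites, and the sites seen at day 0 or day 2 only; black bars are Wilson 95% intervals. The CDS share of the day 4 only sites, 27.2%, stands below the 38.1% of shared sites and the 33.0% of day 0 only sites, and their 3′ UTR share of 22.5% stands above the 14.7% of the day 2 only sites. The sets also differ in the nucleases behind them, which the bars do not hold equal.

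Sites seen at day 0 only or day 2 only gave other profiles. CDS was overlapped by 33.0% of the day 0 only sites, with a difference of -5.82 points for day 4 only minus day 0 only (-7.52 to -4.13), and by 27.9% of the day 2 only sites, where the interval of the difference included 0 (-0.772 points for day 4 only minus day 2 only, -2.41 to 0.863). The 3′ UTR share of 22.5% exceeded the 18.1% at day 0 only by 4.42 points (2.94 to 5.88) and the 14.7% at day 2 only by 7.81 points (6.40 to 9.22). The intron share of 57.0% stood against 62.5% at day 2 only (-5.54 points, -7.33 to -3.75). The sets of single days also differed in nuclease. Sites called by dsRNase alone made up 33.9% at day 4 only, 19.0% at day 0 only and 4.40% at day 2 only. Of members, 35.2% touched a 3′ UTR with dsRNase alone and 12.4% with ssRNase alone. These differences between days were not computed at equal nuclease support, and the part of the nucleases in them was not tested. Where sites were required to lie wholly in an intron, the share was 52.3% of members and 47.0% of shared sites, a difference of 5.32 points (3.99 to 6.65). Wholly in CDS lay 20.5% and 25.1% (-4.67 points, -5.74 to -3.57), a smaller difference than for sites that touched CDS. Wholly in a 3′ UTR lay 20.3% and 17.4% (2.84 points, 1.79 to 3.92), so that here the interval excluded 0. Sites that ran from an exon into an intron were fewer among members, at 4.42% against 8.99% (difference -4.58 points, -5.14 to -3.97). Members that lay in introns and touched no exon of any transcript had a median distance of 1745 nt to the nearest exon, against 1626 nt for shared sites, and 6.19% and 6.97% of them lay within 100 nt of an exon (difference -0.780 points, -1.75 to 0.291).

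The CDS share was below that of shared sites under every alternative tried, although the size varied. The difference was -6.50 points when PPSs of 20 to 40 nt were left out of the day 0 and day 2 lists and -6.77 points without replicate 2 of day 0. The intron difference had no settled sign, with -2.66 points on the plus strand (-4.60 to -0.718) and 2.64 points on the minus strand (0.836 to 4.42). The ssRNase calls of replicate 2 were uneven between strands at day 0 and day 4, and the part of this imbalance in the intron result was not tested.

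The nucleases behind the sites differed as well. Calls of dsRNase alone made up 2139 members, or 33.9% (32.7 to 35.0), and 18.6% of shared sites (18.2 to 19.0). The difference of 15.3 points had an interval of 14.1 to 16.5. Calls of ssRNase alone made up 22.3% of members and 28.8% of shared sites, and both nucleases 43.8% and 52.6%. By single call set, members held a call of ssRNase replicate 1 in 45.8% of cases, of ssRNase replicate 2 in 53.9%, of dsRNase replicate 1 in 65.1% and of dsRNase replicate 2 in 56.5%. Shared sites held them in 65.4%, 71.0%, 58.6% and 49.7%. Members thus carried fewer ssRNase calls than shared sites in either replicate and more dsRNase calls in either replicate.

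**Figure D2:**
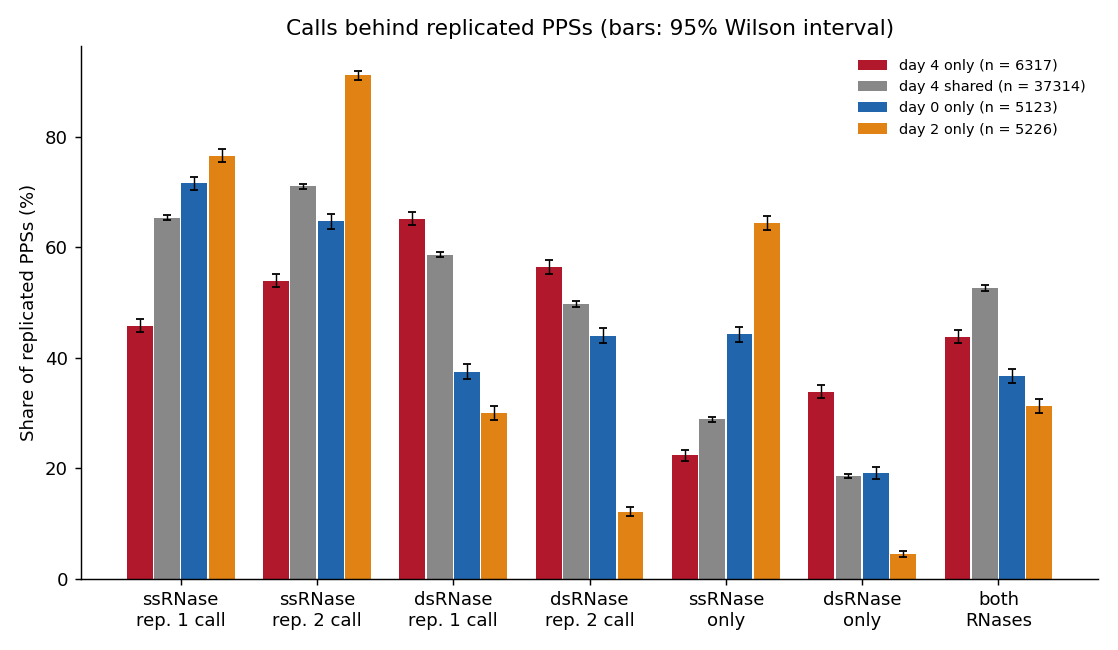
Share of replicated PPSs (y axis, percent) with a call of each nuclease and replicate, and with support from ssRNase only, dsRNase only or both (x axis), for the 4 sets of sites; black bars are Wilson 95% intervals. The dsRNase-only share is 33.9% for day 4 only sites, 18.6% for shared sites, 19.0% for day 0 only sites and 4.40% for day 2 only sites.

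The dsRNase-only share of the sites seen at a single day had the same order as the dsRNase calls of that day's list. It was 19.0% at day 0 only, 4.40% at day 2 only and 33.9% at day 4 only, and dsRNase supplied 38.4%, 27.2% and 52.5% of all calls at those days. How far these totals set the shares was not tested. Leaving out replicate 2 of day 2, the smallest dsRNase call set, gave a difference from shared sites of 10.3 points. It was 6.52 points among sites with a score at or above the median of replicated day 4 PPSs, 22.8 points among sites that a single nuclease supported in both replicates, and 23.6 and 27.6 points without replicate 1 or replicate 2 of day 4. A single nuclease had called the site in both replicates for 75.5% of members and 84.1% of shared sites (difference -8.58 points, -9.71 to -7.46). For the remaining members, replication rested on ssRNase in a replicate and dsRNase in the other.

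The 3′ UTR share differed by nuclease in members and shared sites alike. Of the 2139 dsRNase-only members, 35.2% touched a 3′ UTR, against 12.4% of the 1410 members supported by ssRNase alone and 17.8% of the 2768 supported by both. Shared sites had the same order, with 40.1%, 14.3% and 19.1%. Introns were touched by 45.1% of the dsRNase-only members and 34.1% of the dsRNase-only shared sites, a difference of 11.0 points (8.63 to 13.4). Their CDS share was 27.7%, against 42.9% of dsRNase-only shared sites (-15.2 points, -17.4 to -13.0). Among ssRNase-only sites the CDS difference was -11.4 points (-13.9 to -8.88), and the interval of the intron difference included 0 (1.30 points, -1.36 to 3.88). The 3′ UTR share was lower in members than in shared sites within dsRNase-only support (-4.92 points, -7.23 to -2.57). Within ssRNase-only support it was -1.86 points (-3.62 to 0.0719) and within support from both -1.23 points (-2.72 to 0.339), both with intervals that included 0, as did that of the pooled difference of 0.913 points. Mean GC content was 43.4% ± 8.77 in dsRNase-only members and 48.1% ± 8.89 in ssRNase-only members (SD over sites).

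Members were shorter and scored lower than shared sites. Both measures bear on the selection, since a long PPS has more nucleotides with which to meet a site of another day, and they are given as a description. The median length was 68 nt (quartiles 56 and 86, range 11 to 316) against 84 nt, and 16 members were shorter than 20 nt. The share of replicated day 4 PPSs that were day 4 only fell with length, from 24.0% at 41 to 60 nt (23.2 to 24.9) and 17.5% at 61 to 80 nt to 7.88% at 101 to 150 nt and 3.23% above 150 nt (2.72 to 3.83). The deposited score, which is the enrichment value given by the authors to each PPS, had a median of 13.75 in members and 18.53 in shared sites. Exactly 2 calls formed 79.2% of members and 59.5% of shared sites. By position, median scores were 13.75 for intronic members, 14.96 for those in CDS and 16.34 for antisense members, and the highest score among all members, 64.41, belonged to an antisense site.

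Most members lay close to a site of an earlier day. The distance to the nearest PPS of day 0 or day 2 on the same strand had a median of 214 nt, and the middle 80% of members lay between 20 and 2659 nt. Within 50 nt were 1374 members (21.8%), within 500 nt 66.7% and within 1000 nt 78.7%. At the gene level, 5761 members lay inside an annotated gene on their strand. Of these, 40 (0.694%, 0.510 to 0.944) lay in genes that held no PPS of any length at day 0 or day 2; a member that overlapped several genes was counted here only if none of them held such a PPS. Nearly every member in a gene thus lay in a gene that held a PPS somewhere in its span at an earlier day. A position gained at day 4 and a position under the calling threshold at the earlier days cannot be told apart.

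The members fell in 2868 genes, of which 2747 were protein-coding. These were 40.1% of the 7158 genes that held any replicated day 4 PPS. A single member was found in 1789 genes, and 5 or more in 212. The 56 genes with 10 or more members held 1029 of the 6317 sites (16.3%). Of these 56 genes, 48 had more PPSs at day 2 than at day 0 and more at day 4 than at day 2, with medians of 40, 113.5 and 168 PPSs. The same order held in 1578 of all 7158 genes (22.0%). The selection favours this order, so that it is given as a description. It likewise favours higher calls at day 4 in the genes and clusters described below. Their calls are also a description, and such gaps were not counted over all genes. Members that overlapped more than a single annotated gene numbered 228 and were counted for each of them.

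Of the 10 genes with the most members, Sptb and Epb41 belong to the red cell skeleton, and Sptb held the most. Sptb held 60 members among its 178 replicated day 4 PPSs (33.7%). Its calls in ssRNase replicates 1 and 2 were 14 and 10 at day 0, 143 and 149 at day 2 and 187 and 202 at day 4. In dsRNase replicates 1 and 2 they were 12 and 21, 45 and 30, and 198 and 144. Every call set of day 4 was above every call set of day 0, an order that the selection favours. Over the whole lists, dsRNase calls in replicates 1 and 2 were 41323 and 20927 at day 2 and 68632 and 52174 at day 4. Exons of Sptb were touched by 34 of its 42 PPSs at day 0, by 55 of 256 at day 2, by 80 of 382 at day 4 (20.9%) and by 9 of the 60 members (15.0%), of which 53 lay wholly in an intron of at least 1 transcript, 7 touched the 3′ UTR and 2 the CDS. Epb41, which encodes protein 4.1R, a linker of spectrin and actin to the membrane, held 40 members of 130 (30.8%). Its dsRNase calls were 21 and 25 at day 0, 32 and 16 at day 2 and 152 and 118 at day 4. Its ssRNase calls were 54 and 35, 92 and 87, and 128 and 167. A member in an Epb41 intron with a score of 35.85 (chr4:132064627-132064754, minus strand) directly adjoined a PPS of an earlier day.
Epb41 intron: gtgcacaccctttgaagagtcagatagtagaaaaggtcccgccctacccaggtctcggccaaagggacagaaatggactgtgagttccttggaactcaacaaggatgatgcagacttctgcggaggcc

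**Figure D3:**
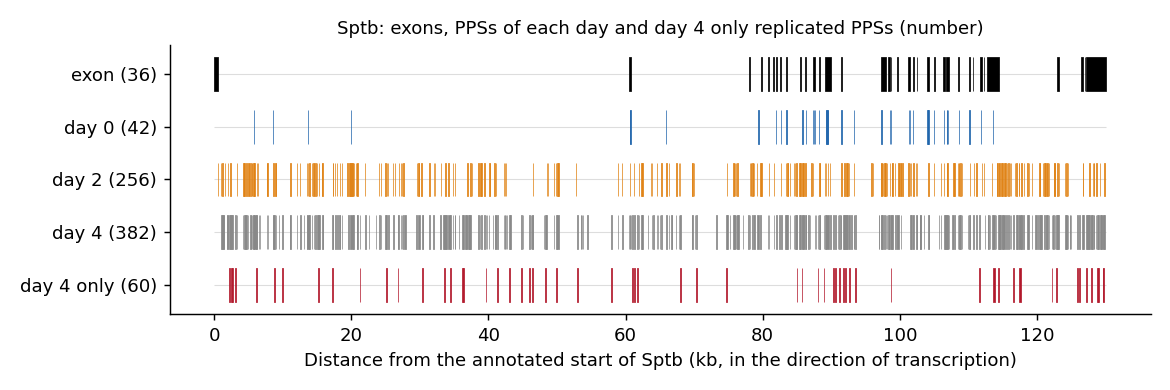
Map of Sptb with distance from its annotated start in kb (x axis) and, in rows, its merged exons, the PPSs of day 0, day 2 and day 4 and the 60 day 4 only replicated sites; the number of each is in brackets. Of the 42 PPSs of day 0, 34 touch an exon, while 80 of the 382 PPSs of day 4 and 9 of the 60 day 4 only sites do and the rest of the latter are spread over introns along the gene.

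The other genes with the most members encode diverse proteins. Cpeb4, which encodes a regulator of cytoplasmic polyadenylation and translation, held 48 members of 105 replicated sites (45.7%). Its calls in the order ssRNase replicates 1 and 2 and dsRNase replicates 1 and 2 were 2, 7, 5 and 1 at day 0, 40, 70, 16 and 10 at day 2 and 105, 95, 132 and 99 at day 4. The groups of the 3 days did not overlap in this gene, which was named for its count of members.

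Kalrn and Atp2b4 had the largest shares among the 10 leading genes. In Kalrn, which encodes a guanine nucleotide exchange factor, 27 of 34 replicated day 4 sites (79.4%) were seen at day 4 only. The gene had 3 PPSs before induction, 17 at day 2 and 121 by day 4. Its calls at day 4 were 43 and 64 for ssRNase and 41 and 39 for dsRNase, and no earlier call set exceeded 11. In Atp2b4, which encodes a plasma membrane calcium pump, 29 of 45 (64.4%) were members, and its calls were 9, 4, 3 and 4 at day 0, 12, 13, 10 and 3 at day 2 and 34, 73, 56 and 61 at day 4. Every day 4 call set of Atp2b4 was above every earlier one, with a wide gap between the ssRNase replicates. The selection favours this order. Ell2, which encodes an elongation factor of RNA polymerase II, held 33 members of 78, Camta1 33 of 84, Cmss1 32 of 90 and Ranbp10, which encodes a Ran-binding protein, 23 of 49. In Camta1, a transcription activator gene, the ssRNase calls of replicates 1 and 2 were 112 and 111 at day 2 and 114 and 156 at day 4. The lower ssRNase count of day 4 was thus close to those of day 2. In Cmss1 the ssRNase calls were 60 and 26 at day 0, 33 and 61 at day 2 and 86 and 125 at day 4, so that the counts of day 0 and day 2 overlapped.

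**Figure D4:**
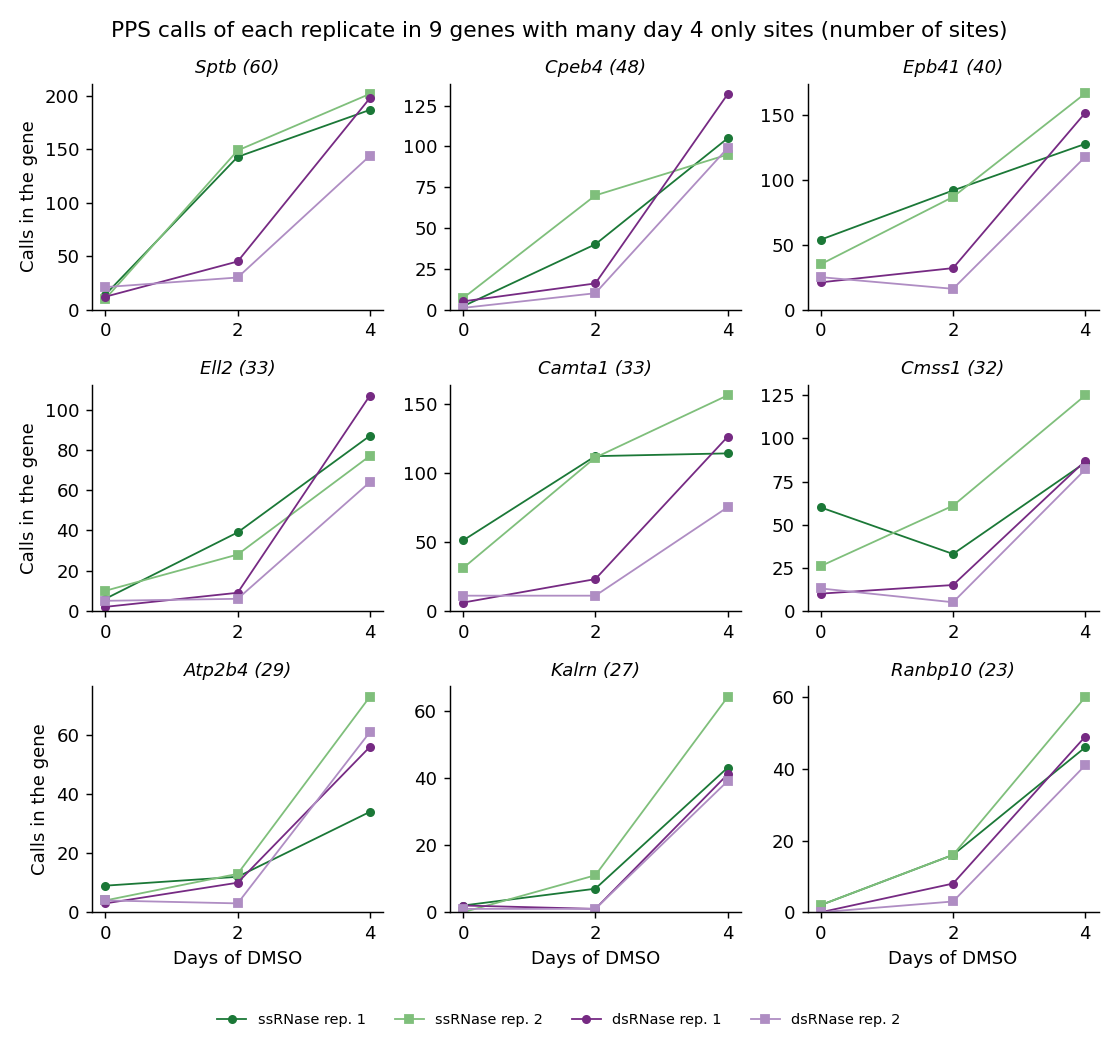
Calls inside each gene on its strand (y axis, number of calls, linear from 0) against days of DMSO (x axis) for the 4 call sets, in 9 of the 10 genes with the most day 4 only sites; the number of such sites is in brackets, and lines only guide the eye, since the labels do not link replicates between days. In Sptb the dsRNase lines run from 45 and 30 at day 2 to 198 and 144 at day 4, while the ssRNase lines are already at 143 and 149 by day 2.

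The pathways of the red cell were then read from gene lists. The 22 listed genes of the red cell membrane and skeleton held 758 replicated day 4 PPSs, of which 198 (26.1%, 23.1 to 29.4) were day 4 only, against 14.5% of all replicated day 4 PPSs. The median over its genes was 23.2%, and 16 of the 20 genes with a replicated site held a member, against 40.1% of all such genes. A gene with more replicated sites has more chances to hold a member, and these 20 genes held 758. The shares of genes were not compared at equal numbers of sites. Sptb and Epb41 contributed 60 and 40 of these sites, Ank1, which encodes the ankyrin that ties spectrin to the membrane, 17 of its 113 replicated sites, and Cd47, which encodes a surface protein that restrains phagocytosis, 13 of 42. By the same count 6.63% of the list's replicated sites were seen at day 0 only (11 of 166) and 8.08% at day 2 only (32 of 396). Sites of a gene share their RNA, so that no test was made of these shares. Over all 7158 genes the median was 0% and the mean 14.9%.

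Heme synthesis enzymes held 30 day 4 only sites among 119 replicated ones (25.2%, 18.3 to 33.7), in 7 of 8 genes. Alas2, which encodes the erythroid enzyme of the initial step of heme synthesis, held 8 of 24. Its calls in ssRNase replicates 1 and 2 and dsRNase replicates 1 and 2 were 2, 3, 5 and 3 at day 0, 13, 14, 11 and 3 at day 2 and 24, 27, 30 and 31 at day 4. The call sets of day 4 lay above all earlier ones, an order that the selection favours. All 8 members of Alas2 were intronic, 27 to 627 nt from a site of an earlier day. The list also held Fech, ferrochelatase, with 8 of 38 and Alad, aminolevulinate dehydratase, with 5 of 22.

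The lists of terminal maturation and of cell cycle exit also lay above 14.5%. For terminal maturation, autophagy and survival, 34 of 149 sites (22.8%, 16.8 to 30.2) were day 4 only, with Wdr26, a subunit gene of a ubiquitin ligase, at 7 of 32, Rnf10, a ring finger gene, at 4 of 12 and Ube2o, whose enzyme marks proteins for removal in reticulocytes, at 3 of 6. For cell cycle exit it was 22 of 89 (24.7%, 16.9 to 34.6). Mxd4 and Mxd1, which encode antagonists of MYC, held 8 of 21 and 4 of 9. Neither gene held a PPS at day 0, and the calls of Mxd4 were 18, 8, 6 and 5 at day 2 and 18, 27, 23 and 19 at day 4. Its ssRNase counts of the later days met at 18, while its dsRNase counts were higher at day 4 than at day 2. Gadd45g, a growth arrest gene, held 3 of 6 and Rb1, the retinoblastoma gene, 3 of 15. Of the same list, 21.4% of sites at day 2 (12 of 56) were seen at day 2 only.

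**Figure D5:**
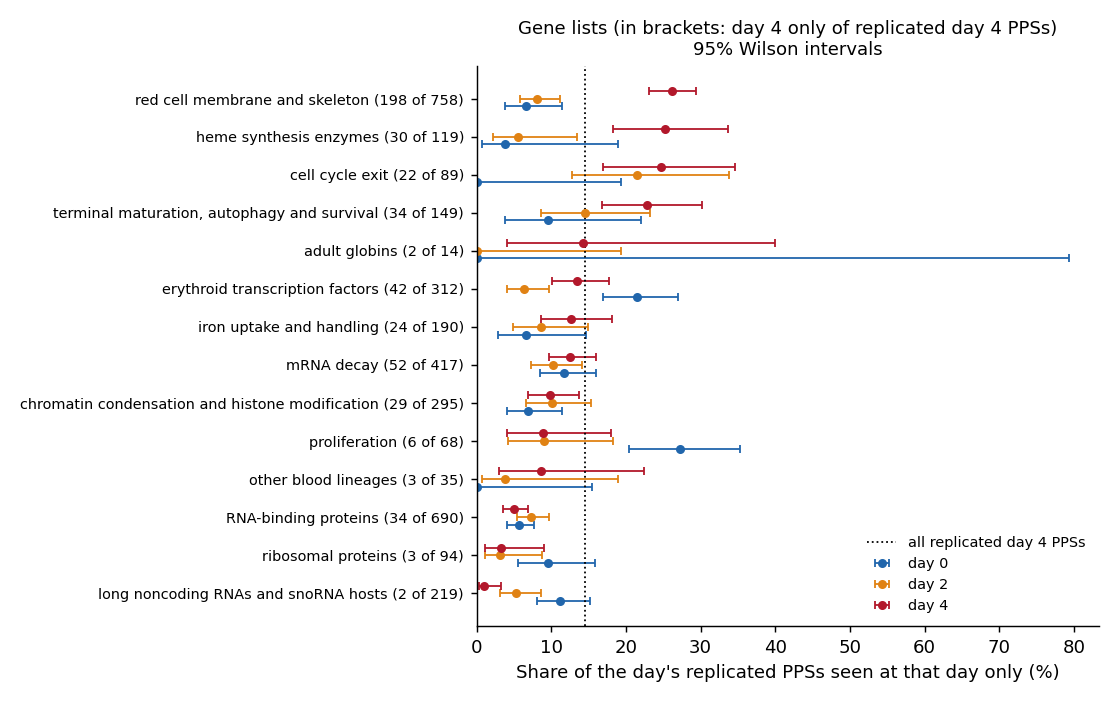
Share of a day's replicated PPSs that were seen at that day only (x axis, percent) for each gene list (y axis; day 4 only of replicated day 4 sites in brackets), with points for day 0, day 2 and day 4, Wilson 95% intervals and a dotted line at 14.5%. The red cell membrane list stands at 26.1% at day 4, against 6.63% at day 0 and 8.08% at day 2, while proliferation genes stand at 27.2% at day 0 and 8.82% at day 4.

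Other erythroid lists did not stand apart from all replicated sites. Erythroid transcription factors held 42 of 312 (13.5%, 10.1 to 17.7), and 6 of their 17 genes held a member. Foxo3, a forkhead factor active in late erythroblasts, held 20 of 69, none of them from ssRNase alone, Zfpm1, which encodes the GATA1 partner FOG1, 16 of 133, Tal1 3 of 32 and Zbtb7a 1 of 5. At day 0, 21.5% of this list's sites (55 of 256) were seen at that day only. Iron uptake and handling held 24 of 190 (12.6%, 8.64 to 18.1), with 9 of 51 in Slc25a37, mitoferrin 1 of the mitochondrial membrane, 7 of 42 in Abcb10, a mitochondrial transporter, 2 of 36 in Tfrc, the transferrin receptor, and 2 of 30 in Pcbp2.

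The adult globins show why sites on near-identical genes are uncertain. Of 14 replicated sites, 2 were day 4 only, an intronic site in Hbb-bt (chr7:103812927-103813055) and another in Hbb-bs (chr7:103826936-103827064), both on the minus strand. Each was 129 nt long with a score of 23.73 and calls in ssRNase replicate 1 and both dsRNase replicates, and their sequences differed at 0 bases, so that reads of either gene could not be assigned to a single copy.
Hbb-bt intron: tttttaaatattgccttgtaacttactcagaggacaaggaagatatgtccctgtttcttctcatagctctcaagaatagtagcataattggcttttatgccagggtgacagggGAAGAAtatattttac
Hbb-bs intron: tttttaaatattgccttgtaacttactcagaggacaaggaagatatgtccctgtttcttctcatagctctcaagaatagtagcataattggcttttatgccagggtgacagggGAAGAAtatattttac

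Lists outside the red cell programme ranged from 0.913% to 12.5%. RNA-binding protein genes held 34 of 690 (4.93%, 3.55 to 6.81), beside 5.63% of their replicated sites at day 0 seen at day 0 only and 7.24% at day 2 only, with 5 of 88 in Mbnl1, a splicing regulator, 4 of 25 in Rbm38 and 4 of 13 in Pabpc4, which encodes a poly(A)-binding protein. Ribosomal protein genes held 3 of 94 (3.19%, 1.09 to 8.97), beside 9.52% at day 0 only and 3.12% at day 2 only, with 1 each in Rps2, Rpl10 and Rpl18. Long noncoding RNAs and snoRNA hosts held 2 of 219 (0.913%, 0.251 to 3.27), beside 11.1% and 5.28%, with 1 of 44 in Neat1 and 1 of 87 in Kcnq1ot1. Proliferation genes held 6 of 68 (8.82%, 4.11 to 17.9), of which 4 lay in Ccnd2 and 1 each in Cdk6 and Mcm2, while 37 of the 136 replicated sites of that list at day 0 (27.2%, 20.4 to 35.2) were seen at day 0 only. The interval of the proliferation list at day 4 included 14.5%. Genes of mRNA decay held 52 of 417 (12.5%, 9.64 to 16.0), an interval that also included it, with 13 of 56 in Tnrc6b and 6 of 19 in Ago2, both of the microRNA silencing complex, 11 of 89 in the deadenylase gene Pan3 and 3 of 31 in Tnrc6c. Chromatin genes held 29 of 295 (9.83%, 6.93 to 13.8), beside 6.91% at day 0 only and 10.1% at day 2 only, led by the histone methyltransferase genes Kmt2c with 10 of 80 and Kmt2d with 4 of 61 and the acetyltransferase gene Crebbp with 5 of 19, and both replicated sites of Ezh1 were members. In the list of other blood lineages, 3 of 35 sites were members (8.57%, 2.96 to 22.4), all in Itga2b, a platelet integrin gene.

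Some genes held PPSs at day 4 alone. Of the 46 genes with a member and no PPS of any length at day 0 or day 2, counted gene by gene even where a member also overlapped another gene with such a PPS, 24 were protein-coding. Slc4a1, which encodes the anion exchanger band 3, the anchor of the skeleton in the red cell membrane, came ahead of the rest in exonic nucleotides covered, with 338 nt. It had 0 calls in all 8 call sets of day 0 and day 2 and 3, 2, 7 and 5 calls at day 4. Its 12 day 4 PPSs included 4 members, 2 in the CDS and 2 in the 3′ UTR, at chr11:102357933-102358003, chr11:102361141-102361254, chr11:102349135-102349195 and chr11:102350044-102350135 on the minus strand. All 4 carried a call of dsRNase replicate 1, and their scores ran from 10.8 to 17.62. The longer CDS site is shown as the coding example of a gene new to the lists at day 4; the gene was selected for display after its values had been seen.
Slc4a1 CDS: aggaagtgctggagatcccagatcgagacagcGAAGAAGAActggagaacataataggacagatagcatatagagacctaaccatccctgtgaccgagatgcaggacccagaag

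The other genes of this kind were small in count. Fam214b held 4 members and calls of 4, 7, 6 and 1 at day 4. Trappc2l, a gene of the TRAPP trafficking complex, held 2 members, as did Col7a1, a collagen gene with ssRNase calls of 3 and 3 and 0 dsRNase calls, and Myl10, a myosin light chain gene. The members of Myl10 belong to a cluster, described below, that begins upstream of the gene and held 14 PPSs at day 0 and 100 at day 2. Mapre3, which encodes a protein of microtubule ends, the kinase gene Matk, Dnajb9, which encodes a chaperone of the endoplasmic reticulum, Tmem191c and Ccdc189 held 1 each. In Matk, ssRNase replicate 1 gave 5 calls and replicate 2 gave 0, and in Dnajb9 the calls were 1, 0, 1 and 1. Counts of this size do not separate a gene that gained its sites from a gene that passed the calling threshold at a single day.

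Outside annotated genes of their strand lay 556 members, and 198 of them fell into 12 clusters, in which members on a strand were at most 10000 nt apart. The cluster with the most of them ran from upstream of Myl10 into that gene on chr5:136627462-136695413 (plus strand), with 34 intergenic members and 2 in Myl10. Its calls in ssRNase replicates 1 and 2 and dsRNase replicates 1 and 2 were 7, 9, 1 and 1 at day 0, 63, 69, 15 and 10 at day 2 and 99, 106, 96 and 90 at day 4. All call sets of day 4 lay above those of day 2 and day 0. The rule favours this gap, here and in the other clusters, which were picked for their members. On chr8:45125570-45161823 (minus strand), antisense to the predicted gene Gm30504, 27 members were found, with 1, 1, 2 and 0 calls at day 0, 0, 7, 0 and 0 at day 2 and 24, 50, 29 and 30 at day 4. This locus held the highest score of all members (64.41, chr8:45154300-45154541). On chr14:74324849-74351273 (plus strand), 23 members were antisense to Gm49171, with 2, 2, 0 and 1 calls at day 0 and 27, 31, 49 and 39 at day 4.

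A pair of clusters on chromosome 15 lay at the apolipoprotein L genes. On chr15:77508729-77528844 (plus strand), which begins in Apol11a, 41 members were found, 26 of them outside genes, and the 4 call sets gave 0 calls each at day 0, 8, 10, 1 and 0 at day 2 and 64, 55, 49 and 35 at day 4. On chr15:77620510-77641032 (minus strand), which reaches Apol11b, 29 members were found with 0 calls at day 0, 15, 19, 2 and 3 at day 2 and 51, 51, 40 and 33 at day 4. In both clusters most calls of day 2 came from ssRNase, as in the whole day 2 list, where dsRNase supplied 27.2% of calls. No call set of day 4 overlapped those of day 2, a gap that the rule favours. Apol11a and Apol11b are paralogs, and reads shared between such copies could not be separated here. Csf2rb2 lies on the same chromosome with 19 members of 71 replicated sites, and its paralog Csf2rb held 15 of 80. Among the 10 members with the highest scores, 6 lay outside genes on chromosomes 8 and 15, 1 antisense on chromosome 3 (61.11), 2 in Csf2rb2 (62.25 in an intron and 54.65 in the CDS) and 1 in the 3′ UTR of Nfat5, which encodes a factor of the response to osmotic stress (chr8:107373976-107374120, score 56.93).

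Base composition and short words differed little between members and shared sites. GC content was 45.4% ± 8.92 (SD, n = 6317 sites) against 46.2% ± 8.99, a difference of -0.867 points (-1.10 to -0.628), and -0.174 points when nuclease support was held equal. Members had less G, with a mean of 25.9% against 27.3% (-1.33 points, -1.49 to -1.17), and slightly more A (0.495 points, 0.297 to 0.693). The day 2 only sites had more G than the members (29.2%). GTGTG, a GU-rich word of the kind bound by CELF1, was present in 10.7% of members and 14.4% of shared sites (-3.63 points, -4.46 to -2.77), but the difference was -0.685 points within classes of equal length. GAAGAA, a purine word of splicing enhancers, was found in 8.09% and 9.83% (-1.74 points, and -0.267 within length classes). TGTANATA was found in 39 members (0.617%) and in 1.30% of shared sites (-0.680 points, -0.884 to -0.429, and -0.450 within length classes). TCTCT was found in 7.12% and 7.65%, with an interval that included 0 and a difference of the opposite sign, 1.37 points, within length classes, and ATTTA in 7.54% and 8.84%, with a difference of 0.214 points within length classes. AATAAA was found in 3.61% and 3.70% (0.632 points within length classes) and AAAAAA in 2.52% and 3.01% (0.132 points). The words were searched on the strand of the PPS only, and a match is not a binding site. Repeats covered at least 50% of 1.50% of members and 2.07% of shared sites.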

How the data were processed

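PIP-seq calls of 24 MEL cell libraries (3 days, 2 nucleases, footprinting or structure-only, 2 replicates) were used. Per the labels and the study's methods, reads were trimmed with cutadapt 1.2.1, aligned to mm10 with TopHat2 2.0.10, and PPSs were called at a false discovery rate of 5% with a modified CSAR, footprinting against structure-only libraries, then merged into 1 deposited list per day. The deposited score of a PPS is the enrichment value of the authors; how libraries were scaled is not given in the sources used here. Read depth is given there only as a range over all libraries, so that totals of calls are given for each call set. The lowest score was 5.4, and 10.8 for PPSs of 2 calls, so that scores of merged calls appear to add.

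The name field gave the nuclease and replicate of each call. Groups followed the sample titles. Overlap meant 1 nt on the same strand. Genes were those of GENCODE release M21 (55450 genes, 21 chromosomes). Shares are given with Wilson and differences with Newcombe 95% intervals, and means with normal intervals over sites; no p-value was computed. Equal length or support means strata weighted by the members. The members, lists and rules were chosen with earlier results of these data known. Named genes were the 10 with the most members, those of the 10 highest scores, the 10 protein-coding genes with the most exonic nucleotides in members and no PPS at day 0 or day 2, and up to 4 of each list, without predicted and RIKEN symbols; genes outside it (Csf2rb, Apol11a, Apol11b, Cenpb, Zfp644, Dpf3, Firre, Gm30504 and Gm49171) stand for printed sequences or loci and were added after their values were seen. Some genes that met this rule are not reported here. On simulated sites the overlap step recovered 200 of 200 planted sites and called 0 of 2000 overlapping sites. The tools were numpy 2.4.6 and pandas 2.3.3 under Python 3.11.15, with scipy 1.17.1 for intervals and matplotlib 3.10.9 for figures.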

Additional observations from a re-analysis of the deposited data

Results flagged for a closer look

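The contrast of day 4 only with shared sites was not equal between the nucleases. The intron difference was 9.71 points larger among dsRNase-only than among ssRNase-only sites (95% interval from counting error, 6.16 to 13.2), at 11.0 against 1.30 points. For dsRNase-only minus ssRNase-only sites, the CDS difference was -3.79 points (-7.14 to -0.453) and the 3′ UTR difference -3.06 points (-6.03 to -0.0887). The intervals treat sites as independent, which sites of the same RNA are not, and these differences were not tested over replicates.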

How the results depend on the processing

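No paired analysis was possible because the results are shares and counts that come from no test; values per replicate are given for named genes, without a test. The CDS share of members stayed below that of shared sites in 18 of 18 alternatives, the dsRNase-only share above it in 16 of 16 and the GC content below it in 17 of 17. For CDS, the alternative of 1 class for each PPS gave CDS precedence, so that its value could not differ from the main value. The intron difference kept its sign in 10 of 18 and the 3′ UTR difference in 13 of 18, and both main intervals include 0. Requiring a score at or above the median gave 1664 sites, -7.79 points for CDS, -4.17 for introns, 6.52 for dsRNase-only sites and -0.579 for GC. Requiring a gap of 50 nt to other days gave -12.6 for CDS, 2.64 for introns, -2.19 for 3′ UTRs and 13.0 for dsRNase-only sites. Leaving PPSs of 20 to 40 nt out of the other days gave -6.50, -3.44 and 3.51 points for CDS, introns and 3′ UTRs. Requiring a single nuclease in both replicates gave -1.47 for introns and 22.8 for dsRNase-only sites. Equal nuclease support gave 4.53 for introns, -2.62 for 3′ UTRs and -0.174 for GC. Equal length gave 12.5 for dsRNase-only sites and -0.556 for GC. With 1 class for each PPS, introns stood at 7.28 and 3′ UTRs at 3.52. Added after seeing the data, the plus strand gave -2.66 for introns and 18.8 for dsRNase-only sites, the minus strand 2.64 and 12.4, and leaving out the 10 genes with the most members -1.50 for introns.

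Leaving out each replicate in turn gave 8061 to 23829 sites, with the upper end from replicate 2 of day 4, whose removal also removes the demand for replication. CDS ran from -13.1 to -6.77, introns from -2.37 to 6.28, 3′ UTRs from -2.60 to 3.16, dsRNase-only sites from 10.3 to 27.6, GC from -1.33 to -0.523 and the share in genes new to the lists from 0.605% to 0.955%. The cause of these shifts was not tested. Depth limits every absence, since a site missing from a day may lie under its calling threshold.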

Other observations

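Members were spread over all chromosomes at similar shares of the replicated day 4 PPSs, from 11.7% on chromosome X to 16.9% on chromosome 6. The exception was chromosome Y, where 14 of 338 replicated sites (4.14%, Wilson 95% interval 2.48 to 6.83) were seen at day 4 only. On the minus strand 15.0% of replicated day 4 sites were day 4 only (14.6 to 15.5), and 13.9% on the plus strand (13.4 to 14.4), beside a plus-strand share of 63.0% among the day 0 only sites. With dsRNase alone, 53.9% of members and 53.7% of shared sites were on the plus strand. These shares were 41.7% and 46.4% with ssRNase alone and 43.1% and 48.2% with both nucleases. The part of the uneven ssRNase call sets in this was not tested.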
